A study of Mus musculus with 7 samples.

Results

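Negative feedback regulators of the ERK kinases and the ETV transcription factors were read in mouse amygdala cells enriched for astrocytes. The amygdala had received Cas9 and a guide RNA against Egfr, which encodes the receptor for epidermal growth factor (EGFR), or a control guide. The 10 genes were chosen by name among the 35976 gene symbols of the count table: the phosphatases Dusp4 and Dusp6, the Sprouty genes Spry1, Spry2 and Spry4, the Sprouty-related genes Spred1 and Spred2, and the ETS-family factors Etv1, Etv4 and Etv5. All 10 were in the table, and all 10 were among the 14936 genes that passed the filter on low counts. Their choice did not use measured values, but it was made with earlier results of these libraries known.

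The sgEgfr group had 3 libraries and the sgRosa group, with a control guide against the Rosa locus, had 4. Both groups were male C57BL/6J mice, of an age not stated in the sources used here, with virus injected into the amygdala and Cas9 expressed from GfaABC1D, an astrocyte promoter. In both, more than 2 weeks of expression preceded tube restraint over 7 days, a single session day of fear conditioning and extinction over 3 days. An unstressed group was not analysed here. Papain-dissociated cells were enriched on beads that bind ACSA-2, a surface antigen of astrocytes. Whether libraries came from different mice was not stated, and p-values therefore reflect library-to-library spread, some of which may be technical. sgRosa 3 and sgRosa 4 were nearly as alike as repeat draws from one library (chi-square per degree of freedom 1.04, against 14.8 to 158 for the 20 other pairs), and they were summed to 1 sample, sgRosa 3+4.

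Growth factor receptors such as EGFR, and the fibroblast growth factor receptors, activate RAS, which turns on RAF, MEK and then the ERK kinases. ERK in turn switches on genes whose products hold the same pathway back: DUSP6 and DUSP4 remove the activating phosphates from ERK in cytoplasm and nucleus, Sprouty proteins act between the receptor and RAF, and SPRED proteins bring the RAS inhibitor neurofibromin to the membrane. ETV1, ETV4 and ETV5 form one subfamily of ETS transcription factors, and their mRNAs are commonly used with Dusp6 and Spry4 as a readout of ERK output. In the developing brain they are known as targets of fibroblast growth factor signalling in progenitors and glia.

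Promoter sequences were taken from RefSeq (GRCm38.p6), which had an entry for 7 of the 10 genes and 9 entries in all. The 250 bases before the start site are shown for 3 genes on which the account below turns: Dusp6, whose levels did not overlap between the guides, and Spry1 and Spry2, relatives whose order over the sgEgfr samples was reversed. They lie at chr10:99262981-99263230 on the plus strand (Dusp6), chr3:37639697-37639946 on the plus strand (Spry1) and chr14:105896820-105897069 on the minus strand (Spry2). Capitals mark GGAA, the core that ETS factors contact, on either strand.
Dusp6: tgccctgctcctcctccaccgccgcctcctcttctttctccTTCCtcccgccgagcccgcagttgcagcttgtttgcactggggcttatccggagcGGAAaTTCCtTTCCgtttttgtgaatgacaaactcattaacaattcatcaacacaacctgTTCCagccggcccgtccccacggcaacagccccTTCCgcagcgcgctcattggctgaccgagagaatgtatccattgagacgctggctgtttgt
Spry1: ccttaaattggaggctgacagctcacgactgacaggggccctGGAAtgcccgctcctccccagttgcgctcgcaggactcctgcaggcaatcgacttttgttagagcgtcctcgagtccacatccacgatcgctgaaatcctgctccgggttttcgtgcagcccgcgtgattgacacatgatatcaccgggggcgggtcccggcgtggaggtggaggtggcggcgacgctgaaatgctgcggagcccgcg
Spry2: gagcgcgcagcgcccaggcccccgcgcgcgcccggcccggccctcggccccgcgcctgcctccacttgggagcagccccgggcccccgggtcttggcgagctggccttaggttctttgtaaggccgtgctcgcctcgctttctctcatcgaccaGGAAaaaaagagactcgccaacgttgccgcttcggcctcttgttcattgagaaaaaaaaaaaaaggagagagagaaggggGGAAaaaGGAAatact
The GGAA core occurred 6 times before Dusp6, 1 time before Spry1 and 3 times before Spry2, and in at least 1 entry of all 7 genes. Of all 32851 promoter windows of the same length, 93.45% held it. Longer motifs were searched on both strands in the same windows: CCGGAA, an ETS site that contains the core, TGACGTCA, the cyclic AMP response element, and TGANTCA, the AP-1 site. None of these 3 was in a window of the 7 genes, and 12.03%, 1.546% and 6.749% of all windows held them.

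Libraries held 5852870 to 22579222 counts, and mitochondrially encoded genes took 6.10% to 14.6% of them. Egfr itself measured 10.7, 5.69 and 8.04 CPM in sgEgfr 1 to 3, against 13.3, 2.87 and 10.6 CPM in sgRosa 1, 2 and 3+4. CPM, the usual count relative to the library total, were taken on a total scaled with TMM, a factor that aligns the bulk of genes between libraries. The groups overlapped for Egfr (log2 fold change -0.13, SE 0.54, edgeR adjusted p = 0.997), and small Cas9 deletions need not lower an mRNA, so this count did not test the labels. Astrocyte markers were present, with Atp1b2, which encodes the ACSA-2 antigen, at 1349 ± 116 CPM in sgEgfr and 1131 ± 467 CPM in sgRosa (SD, n = 3 each). The 20 astrocyte markers took 1.113% to 1.59% of counts in sgEgfr and 0.748% to 1.80% in sgRosa, with the low end in sgRosa 2. The 20 oligodendrocyte markers took 9.58% to 16.3% in sgEgfr and 8.82% to 13.4% in sgRosa, above the astrocyte marker share in every sample. The libraries were thus enriched cells with much oligodendrocyte RNA, not pure astrocytes. Endothelial markers took 0.0282% to 0.0314% in sgEgfr and 0.0215% to 0.0226% in sgRosa. Neuron markers took 0.0805% to 0.0820% in sgEgfr and 0.0542% to 0.0741% in sgRosa. Neither share overlapped between the groups. The endothelial share was weighted toward Slc2a1, at 171 ± 30.9 CPM in sgEgfr and 115 ± 34.4 CPM in sgRosa (SD, n = 3 each), with overlap. The highest group mean of any other endothelial marker was 17.3 CPM. Whether the share separated the groups without Slc2a1 was not tested. Oligodendrocyte precursor markers took 0.213% to 0.304% in sgEgfr and 0.184% to 0.251% in sgRosa, and microglia markers 0.0249% to 0.0540% in sgEgfr and 0.0198% to 0.0403% in sgRosa, both with overlap. Of the 7 cell type lists, 0 markers were at 0 in every library. In such bulk samples a different number of cells of a type and a different RNA level per cell cannot be told apart.

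The ERK feedback genes and ETV factors went both ways in sgEgfr. Of the 10 genes, 5 had positive and 5 had negative log2 fold changes (sgEgfr over sgRosa), with a median of 0.10, beside 0.020 over all genes tested, of which 52.9% were positive. The median of the 10 was 0.020 without sgEgfr 2, 0.067 without sgRosa 2 and 0.24 without sgEgfr 3, the settings among those with 1 library left out that moved it by over 1.5 times. None was called by edgeR's quasi-likelihood test at an adjusted p under 0.05, and the adjusted p was 0.997 for each of the 10. Over all 14936 genes the test called 0 (0%), with 401 (2.68%) at an unadjusted p under 0.05, and DESeq2 and limma-voom also called 0, with 500 and 418. At an unadjusted p under 0.05 there were 2 of the 10, Dusp6 and Etv4, both higher in sgEgfr, where 1.31% of all genes were higher and 1.37% lower by that rule. The CPM ranges of the groups did not overlap for 3 of the 10, Dusp4, Dusp6 and Etv4, again all higher in sgEgfr, where 3.76% of all genes did not overlap and were higher, 3.85% were lower and 7.61% were either.

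**Figure D1:**
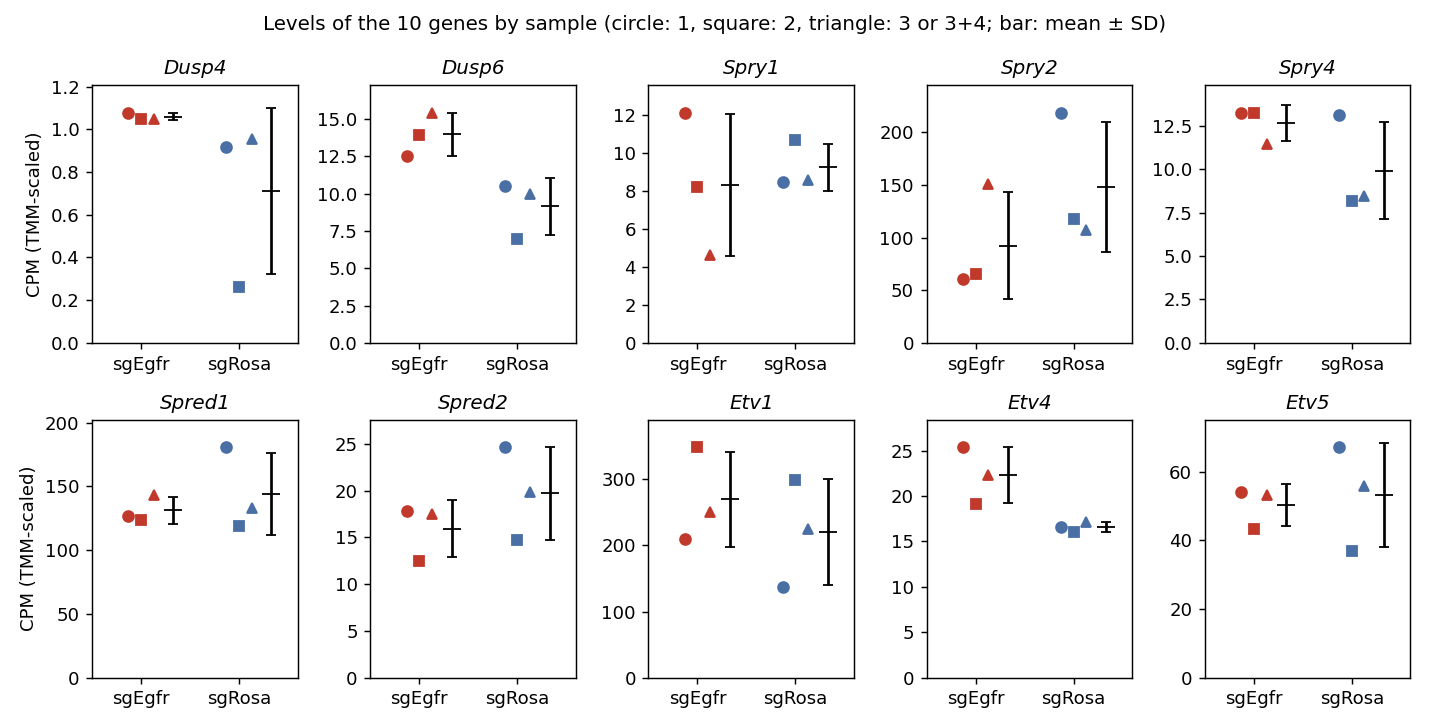
Levels of the 10 genes in CPM on TMM-scaled totals, with 1 panel per gene, each axis starting at 0, 1 point per sample, sgEgfr left of sgRosa, and the mean ± SD (n = 3) beside the points. The sgEgfr points lie above all sgRosa points for Dusp4, Dusp6 and Etv4 and overlap them for the other 7 genes.

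Dusp6, the ERK-selective phosphatase of the cytoplasm, stood at 12.6, 13.9 and 15.4 CPM in sgEgfr 1 to 3, against 10.5, 6.95 and 9.98 CPM in sgRosa 1, 2 and 3+4. All 3 sgEgfr samples lay above all sgRosa samples, and sgRosa 2 was the lowest of the 6. The means were 13.98 ± 1.44 CPM in sgEgfr and 9.15 ± 1.92 CPM in sgRosa (SD, n = 3 each), a log2 fold change of 0.61 (SE 0.25, 95% interval 0.018 to 1.21, edgeR unadjusted p = 0.0449, adjusted p = 0.997). Without sgRosa 2 the log2 fold change was 0.44 (edgeR unadjusted p = 0.108). The gene spans 99263231 to 99267489 on chromosome 10 and had 198, 213 and 353 raw counts in sgEgfr 1 to 3 and 149, 133, 85 and 72 in sgRosa 1 to 4.

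Dusp4, the nuclear phosphatase of the pair, was counted too rarely for a precise level. It had 17, 16 and 24 counts in sgEgfr 1 to 3, against 13, 5 and 15 counts in sgRosa 1, 2 and 3+4. The lowest count, 5 in sgRosa 2, has an exact 95% Poisson interval of 1.62 to 11.7, which covers counting error only. The log2 fold change was 0.59 (SE 0.59, 95% interval -0.78 to 1.95, edgeR unadjusted p = 0.348), and it was 0.17 without sgRosa 2. Dusp4 no longer separated the groups when sgRosa 3 and sgRosa 4 were kept apart, since sgRosa 4 then stood at 1.19 CPM against 1.05 to 1.08 CPM in sgEgfr. Dusp6 and Etv4 still did, and in that setting 2.78% of 15085 genes were higher without overlap. The Dusp6 margin was then narrow, 12.6 CPM in sgEgfr 1 against 12.3 CPM in sgRosa 4, while sgRosa 3 stood at 8.57 CPM.

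The Sprouty genes differed from each other in which samples were high. Spry2 showed 60.9, 65.3 and 151 CPM in sgEgfr 1 to 3, against 219, 118 and 107 CPM in sgRosa 1, 2 and 3+4. sgEgfr 1 and sgEgfr 2 lay below every sgRosa sample, while sgEgfr 3 lay above sgRosa 2 and sgRosa 3+4, so the groups overlapped. The log2 fold change was -0.67 (SE 0.42, 95% interval -1.65 to 0.31, edgeR unadjusted p = 0.15, adjusted p = 0.997), the most negative of the 10. It was -1.23 without sgEgfr 3 (edgeR unadjusted p = 0.0068, adjusted p = 0.999) and -0.28 without sgRosa 1 (edgeR unadjusted p = 0.522). The samples with the highest Spry2, sgEgfr 3 and sgRosa 1, were also those with the largest mitochondrial share of counts, 13.3% in sgEgfr 3 and 14.6% in sgRosa 1, and the part of this share in the result was not tested.

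Spry1 had the reverse order over the sgEgfr samples, with 12.1, 8.18 and 4.63 CPM in sgEgfr 1 to 3, against 8.47, 10.7 and 8.58 CPM in sgRosa 1, 2 and 3+4. Both its highest and its lowest value were in sgEgfr, and the sgRosa samples lay between them. Its log2 fold change was -0.16 (SE 0.37, 95% interval -1.03 to 0.72), and it was -0.53 without sgEgfr 1, -0.040 without sgRosa 2 and 0.13 without sgEgfr 3. Ependymal markers, on 12 genes, took 0.149% of counts in sgEgfr 3, against 0.00535% to 0.0124% in the other sgEgfr samples and 0.00656% to 0.0540% in sgRosa, and their part in the Spry1 value was not tested. In the GENCODE M21 annotation 710 exonic bases of Spry1 overlap Gm42922 on the opposite strand, and without a stated strand setting the reads of the pair cannot be told apart.

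Spry4, a commonly used marker of ERK output, came to 13.3, 13.2 and 11.5 CPM in sgEgfr 1 to 3, against 13.1, 8.15 and 8.46 CPM in sgRosa 1, 2 and 3+4. Only sgRosa 1 reached the sgEgfr range. The log2 fold change was 0.35 (SE 0.27, 95% interval -0.28 to 0.98, edgeR unadjusted p = 0.232). It was 0.23 without sgRosa 2 (edgeR unadjusted p = 0.462) and 0.61 without sgRosa 1 (edgeR unadjusted p = 0.0569), the ends of the range with 1 library left out.

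The SPRED genes, which join neurofibromin to RAS, had negative log2 fold changes within the spread of the samples. Spred1 measured 127, 124 and 143 CPM in sgEgfr 1 to 3, against 181, 119 and 133 CPM in sgRosa 1, 2 and 3+4, so sgRosa 1 alone stood above the sgEgfr samples. Its log2 fold change was -0.14 (SE 0.19, 95% interval -0.58 to 0.31), and it was -0.26 without sgRosa 2 and 0.059 without sgRosa 1. Spred2 stood at 17.8, 12.4 and 17.5 CPM in sgEgfr 1 to 3, against 24.6, 14.7 and 19.8 CPM in sgRosa 1, 2 and 3+4, a log2 fold change of -0.31 (SE 0.26, 95% interval -0.91 to 0.30). The Spred2 value was -0.12 without sgRosa 1, -0.18 without sgEgfr 2 and -0.48 without sgRosa 2. The groups overlapped for both, and sgRosa 1 was the highest sample for both.

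Among the ETV factors, Etv4 had groups that did not overlap. It showed 25.4, 19.2 and 22.3 CPM in sgEgfr 1 to 3, against 16.6, 16.04 and 17.1 CPM in sgRosa 1, 2 and 3+4. The sgRosa samples lay close together, and sgEgfr 2 was the sgEgfr sample nearest to them. The means were 22.3 ± 3.09 CPM in sgEgfr and 16.6 ± 0.531 CPM in sgRosa (SD, n = 3 each), a log2 fold change of 0.43 (SE 0.18, 95% interval 0.00041 to 0.85, edgeR unadjusted p = 0.0498, adjusted p = 0.997). Leaving out 1 library at a time gave 0.32 to 0.51. Beside the Dusp6 and Etv4 values stand the endothelial and neuron marker shares, which also did not overlap between the groups. The endothelial share was weighted toward Slc2a1, and the part of both shares in these values was not tested.

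Etv5 and Etv1 did not separate the groups. Etv5 came to 54.2, 43.2 and 53.3 CPM in sgEgfr 1 to 3, against 67.0, 37.0 and 55.6 CPM in sgRosa 1, 2 and 3+4, and the sgEgfr values lay inside the sgRosa range. Its log2 fold change was -0.083 (SE 0.23, 95% interval -0.62 to 0.46), and it ran from -0.29 without sgRosa 2 to 0.12 without sgRosa 1. Etv1 measured 209, 348 and 251 CPM in sgEgfr 1 to 3, against 137, 299 and 225 CPM in sgRosa 1, 2 and 3+4, a log2 fold change of 0.29 (SE 0.31, 95% interval -0.44 to 1.02). The Etv1 value was 0.042 without sgRosa 1, 0.043 without sgEgfr 2 and 0.57 without sgRosa 2. The highest Etv1 values, in sgEgfr 2 and sgRosa 2, came with the highest oligodendrocyte marker shares, 16.3% in sgEgfr 2 and 13.4% in sgRosa 2. The lowest Etv1 value, in sgRosa 1, came with the lowest share, 8.82%, and the part of this share in the result was not tested.

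**Figure D2:**
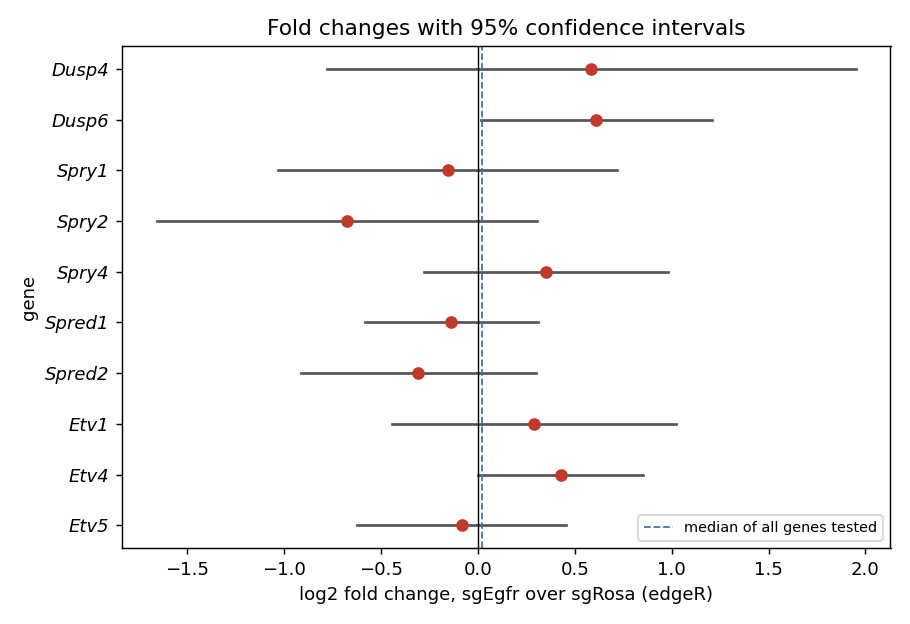
Log2 fold change of each gene, sgEgfr over sgRosa, from edgeR (point) with its 95% confidence interval (line), a solid line at 0 and a dashed line at the median of all genes tested, 0.020. The intervals of 8 of the 10 genes hold 0, and those of Dusp6 and Etv4 start just above it.

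The intervals bound what these samples could show. For 8 of the 10 genes the lower end of the 95% interval lay above -1 on the log2 scale, and the exceptions were Spry1 and Spry2. For 7 of the 10 the upper end lay below 1, and the exceptions were Dusp4, Dusp6 and Etv1. These intervals are for single genes and are not corrected for the number of genes. The spread within groups was near that of other genes, with a median SD of 0.33 (log2 CPM) over the 10 genes and 0.34 over all genes tested. It ran from 0.15 for Etv4 to 0.65 for Spry2.

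Samples did not rank the same way for all 10 genes. sgRosa 2 was the lowest of the 6 samples for 6 genes (Dusp4, Dusp6, Spry4, Spred1, Etv4 and Etv5) and the highest for 0. sgEgfr 1 was the highest for 4 genes (Dusp4, Spry1, Spry4 and Etv4), and so was sgRosa 1 (Spry2, Spred1, Spred2 and Etv5). The lead of sgEgfr 1 was slight for Dusp4 (1.08 CPM, against 1.05 CPM in sgEgfr 2 and in sgEgfr 3). It was also slight for Spry4 (13.25 CPM, against 13.22 CPM in sgEgfr 2). Relative to each gene's mean over the 6 samples, the median deviation of the 10 genes was 0.13, -0.020 and 0.081 in sgEgfr 1 to 3, against 0.19, -0.25 and -0.031 in sgRosa 1, 2 and 3+4 (log2). Both the highest and the lowest median were thus in sgRosa, and the sgEgfr samples lay between them. sgRosa 2 was also the sample with the smallest astrocyte marker share, 0.748%, and the part of that share in its low values was not tested.

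**Figure D3:**
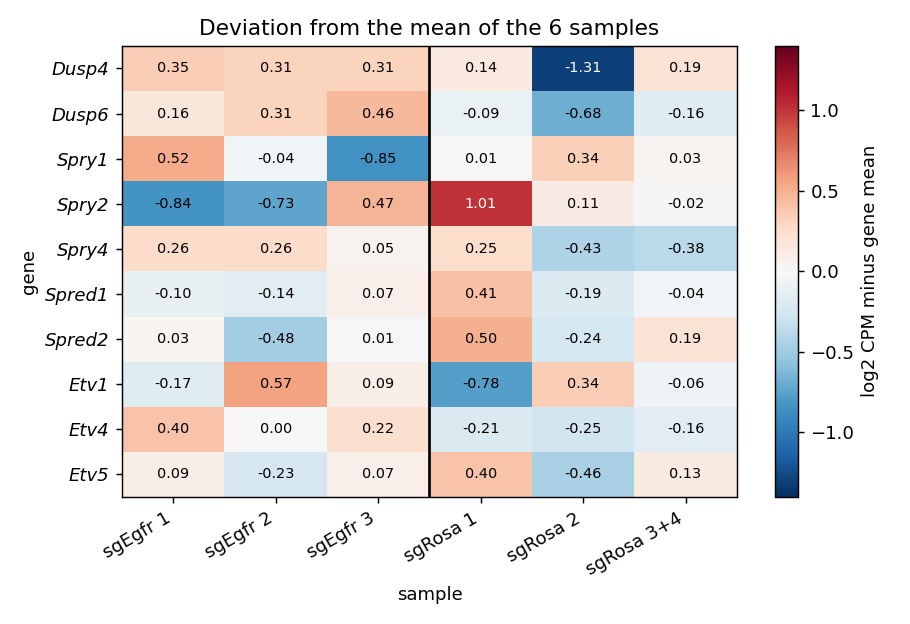
Deviation of each gene's log2 CPM from its mean over the 6 samples, with genes down and samples across, sgEgfr left of the black line and sgRosa right of it, and red for above the mean. The sgRosa 2 column is below 0 for 7 genes, most for Dusp4 (-1.31), and Spry2 and Spry1 take opposite signs in sgEgfr 1 and sgEgfr 3.

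Levels were compared between genes only per length, as CPM per kilobase of the exons that GENCODE M21 (GRCm38) gives each gene. These lengths are an approximation, because the sources used here did not name the annotation behind the counts. Spry2 was highest at 44.3 ± 24.4 in sgEgfr and 70.8 ± 29.5 in sgRosa (CPM per kilobase, SD, n = 3 each), and it was above Spred1, the next gene, in 6 of 6 samples. Spred1 (19.3 ± 1.53 in sgEgfr and 21.3 ± 4.77 in sgRosa), Etv1 (20.3 ± 5.37 in sgEgfr and 16.6 ± 6.07 in sgRosa) and Etv5 (12.2 ± 1.49 in sgEgfr and 12.97 ± 3.70 in sgRosa) followed, and the neighbours among these 3 overlapped in range. Etv1 has many annotated transcripts, and with its longest transcript as the length its mean over the 6 samples was 37.3 CPM per kilobase in place of 18.4, above Spred1 at 22.9 by the same measure.

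Etv4 followed at 7.18 ± 0.997 CPM per kilobase in sgEgfr and 5.34 ± 0.171 in sgRosa, below Etv5 in 6 of 6 samples. Spred2, Dusp6, Spry1 and Spry4 lay close together, with means over the 6 samples of 3.86, 3.69, 3.02 and 2.37 CPM per kilobase and ranges that overlapped between neighbours. Dusp6 was above Spred2 in sgEgfr (Dusp6 at 4.46 ± 0.460 and Spred2 at 3.45 ± 0.656) and below it in sgRosa (Dusp6 at 2.92 ± 0.614 and Spred2 at 4.27 ± 1.08), a change of order that was not tested. Dusp4 was lowest at 0.386 ± 0.00628 in sgEgfr and 0.259 ± 0.142 in sgRosa, below Spry4 in 6 of 6 samples. Of the phosphatase pair Dusp6 was thus the more abundant mRNA, and of the Sprouty genes Spry2 was.

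**Figure D4:**
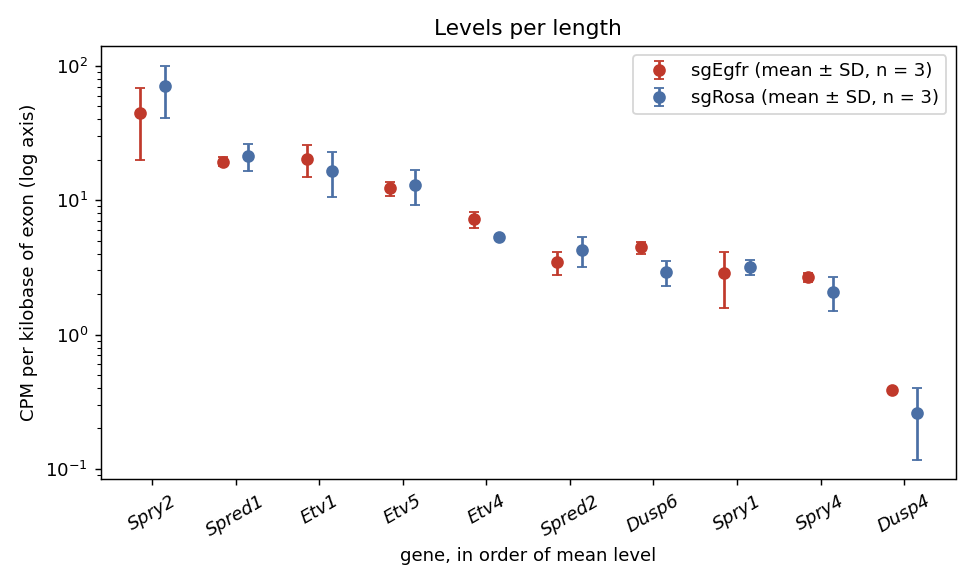
Levels per length in CPM per kilobase of exon on a log axis, with genes in the order of their mean over the 6 samples, sgEgfr left of sgRosa, as mean ± SD (n = 3). Spry2 stands at the top and Dusp4, at 0.386 in sgEgfr and 0.259 in sgRosa, at the bottom. The narrow Dusp4 bar in sgEgfr rests on 16 to 24 counts per sample and understates the counting error.

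Relatives of the 10 genes went both ways. Of 11 further MAP kinase phosphatases, Sprouty and SPRED genes and the receptor inhibitor Il17rd, 10 were tested, Dusp9 being too low, and 5 were positive and 5 negative with a median log2 fold change of 0.021. None was called, and 2 had an unadjusted edgeR p under 0.05, beside 2.68% of all genes tested. They were Dusp16, a phosphatase of the JNK and p38 kinases, with a log2 fold change of -0.48 (SE 0.19), and Dusp1, an immediate early phosphatase, with 1.16 (SE 0.46). Dusp7, another ERK-directed phosphatase, had -0.38 (SE 0.21) at 19.5 CPM in sgEgfr and 25.4 CPM in sgRosa, and Spred3 had 0.66 (SE 0.37).

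Other genes known to follow ERK activity were measured beside them. Of 15 such genes 14 were tested, Fosl1 being too low, and 10 were positive and 4 negative, with a median log2 fold change of 0.45. None was called by edgeR over all genes, and 5 had an unadjusted p under 0.05, all higher in sgEgfr. Of all genes tested, 52.9% were positive and 1.31% were higher at that p. Among them were the AP-1 subunit gene Fos at 1.32 (SE 0.44), the small MAF factor Maff at 1.02 (SE 0.35), the zinc finger factor Egr1 at 1.18 (SE 0.44) and the cyclin Ccnd1 at 0.81 (SE 0.32). Of the 14 tested, 2 were higher without overlap of the ranges and 1 was lower without overlap. Over all genes tested, 3.76% were higher and 3.85% lower by that rule. Of these named genes only Maff had ranges that did not overlap. sgRosa 2 lay above sgEgfr 1 for Fos (732 against 726 CPM) and Egr1 (304 against 234 CPM), and above sgEgfr 3 for Ccnd1 (39.9 against 35.4 CPM). Several of these are immediate early genes that also respond to tissue dissociation, and the 15 heat shock genes took 0.340% to 0.370% of counts in sgEgfr and 0.243% to 0.354% in sgRosa. The part of handling in these values was not tested.

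Upstream kinases and binding partners of the 10 genes were mostly negative. Of 16 genes from Egfr to the ERK kinases, with neurofibromin among them, 5 were positive and 11 negative, where 52.9% of all genes were positive. Their median log2 fold change was -0.24, and none was called. Ranges did not overlap for 2 of the 16, Mapk3 and Nf1, both lower in sgEgfr. Over all genes tested, 3.85% were lower without overlap and 7.61% were either. At an unadjusted edgeR p under 0.05 there was 1 of the 16, Mapk3, beside 2.68% of all genes tested. Mapk3, the gene of ERK1, came to 116, 108 and 115 CPM in sgEgfr 1 to 3. In sgRosa 1, 2 and 3+4 it stood at 155, 189 and 146 CPM, without overlap. Its log2 fold change was -0.53 (SE 0.16, edgeR unadjusted p = 0.0101, adjusted p = 0.997). Nf1, the gene of the neurofibromin that SPRED proteins recruit, stood at 86.7, 72.4 and 86.6 CPM in sgEgfr 1 to 3, against 123.4, 96.8 and 94.0 CPM in sgRosa 1, 2 and 3+4. The Nf1 ranges did not overlap, and its log2 fold change was -0.35 (SE 0.17, edgeR unadjusted p = 0.0667, adjusted p = 0.997). Braf had -0.49 (SE 0.26) and the RAS activator Sos2 -0.36 (SE 0.20).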

How the data were processed

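RNA-seq counts of 7 libraries were analysed. The values the authors deposited are raw whole-number counts for each gene, in a joint table and in 7 library files that held the same counts. Per the submitters' processing notes, featureCounts 2.0.1, edgeR 3.42.4, STAR 2.7.5c and fastp 0.23.2 were used with mm10, beside the quality tools MultiQC 1.11 and FastQC 0.11.9. The annotation, strand setting and treatment of multiply mapped reads are not given in the sources used here. Input was 5 ng of RNA.

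sgRosa 3 and 4 were summed after chi-square tests of all pairs of libraries (genes with 20 or more counts). Genes were kept with filterByExpr (minimum count 10, minimum total 15), scaled by TMM, then fitted and tested by glmQLFit and glmQLFTest (edgeR 4.0.16, R 4.3.3), 3 samples against 3, with the guide as the only term. Benjamini-Hochberg adjustment covered all 14936 genes, and calls were made at an adjusted p under 0.05. The common biological coefficient of variation was 0.386, and 3 counts stood for 0.133 to 0.513 CPM in a library. Deviations and spreads used log2 CPM with a prior count of 2. The script was tested on simulated counts. The members, lists and alternatives were chosen with earlier results of these data known. All 10 members, Egfr and up to 4 genes of each further list with the smallest unadjusted p were named, with Atp1b2 and Slc2a1 for the cell type check. Promoters came from RefSeq and lengths from GENCODE M21. Alternatives were other scaling and filters, DESeq2 1.42.0, limma-voom (limma 3.58.1) alone or with quality weights, a block for the replicate number, 7 separate libraries, libraries left out, and astrocyte or heat shock scores as covariates. Figures used matplotlib 3.10.9.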

Additional observations from a re-analysis of the deposited data

How the results depend on the processing

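Each of the 10 log2 fold changes was recomputed under up to 20 alternatives, 199 values in all, of which 9 had the opposite sign. No gene, member or other, was called under any of the 20, with 155 to 1337 genes at an unadjusted p under 0.05. The log2 fold changes of Dusp4, Dusp6, Spry2, Spry4 and Etv4 kept their sign in all that were run. Dusp4 was not tested with a filter of CPM of at least 1 in at least 3 samples, and the median of the other members was then -0.082. Dusp6 ranged from 0.37 to 0.76, Etv4 from 0.32 to 0.51 and Spry2 from -1.37 to -0.13. With a covariate for heat shock genes the sign was opposite for Spred1 (0.18), Spred2 (0.082), Etv1 (-0.33) and Etv5 (0.30). For Spry1 it was opposite with limma-voom and quality weights (0.056) and without sgRosa 2 and sgEgfr 3 (0.25), an alternative added after the data were seen. The causes were not tested. Leaving out 1 library at a time gave -0.53 to 0.13 for Spry1, -0.26 to 0.059 for Spred1 and -0.29 to 0.12 for Etv5.

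The number of members at an unadjusted p under 0.05, 2 with all samples, was 0 without scaling factors, without a filter, with either covariate or without sgRosa 3 and 4, and 1 with limma-voom (Dusp6) or without sgRosa 2 and sgEgfr 3 (Spry2, lower, edgeR unadjusted p = 0.00262). It was 0 to 1 with 1 library left out, and the member was then Dusp6 (without sgRosa 1 or sgRosa 4), Etv4 (without sgRosa 3 or sgEgfr 2) or Spry2, which was lower (without sgEgfr 3). With limma-voom and quality weights it was 2, Etv4 and Spry2, the second lower (-1.12, limma unadjusted p = 0.0143), and Dusp6 had an unadjusted p of 0.0572. The deviations of same-numbered samples correlated at -0.11, 0.52 and 0.55, and those of differently numbered sgEgfr and sgRosa samples at -0.58 to 0.26. With so few samples these values do not settle whether the replicate numbers pair the samples. With the replicate number as a block this count was 1 (Dusp6), and 0 genes were called (705 at an unadjusted p under 0.05). Counts as low as those of Dusp4 limit its fold change.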
